A study of Mus musculus with 13 samples.

Results

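Nuclear factor kappa B (NF-κB) is a family of dimeric transcription factors held in the cytoplasm by inhibitor proteins until a kinase complex marks the inhibitors for degradation. Tumor necrosis factor (TNF), acting through a pair of receptors, is among the best known signals that start this process, and several inhibitors are themselves NF-κB target genes that limit its duration. In adipose tissue, TNF is made largely by macrophages and is known to lower lipid storage and insulin response of adipocytes. The 10 genes described here, taken as a named set from the 33618 genes in the count table, cover each step: the ligand *Tnf*, the receptors *Tnfrsf1a* and *Tnfrsf1b*, the kinase subunit *Ikbkb*, the NF-κB subunits *Nfkb1*, *Nfkb2*, *Rela* and *Relb*, and the inhibitors *Nfkbia* and *Tnfaip3*. All 10 had enough counts to be among the 16753 genes tested.

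Bulk RNA-Seq was done on whole parametrial white adipose tissue (pmWAT) from 13 female mice, with 1 library per mouse. The 7 control mice (fl/fl) carried *Lmna* alleles with *loxP* sites around part of the gene and no Cre, and the 6 iADKO mice carried the same alleles plus 1 copy of *Adipoq*-CreERT2, a tamoxifen-activated recombinase driven by the adiponectin promoter and so meant to act in adipocytes only. Mice of each genotype were 12 to 14 weeks old when given 50 mg/kg tamoxifen by intraperitoneal injection on 5 days, and tissue was taken 2 weeks posttamoxifen. The comparison asked how the genes of the pathway differed in the whole tissue after loss of lamin A/C from adipocytes. Each library held between 18854223 and 19776491 counts. Levels are in CPM, the counts of a gene relative to the size of its library, with TMM scaling for composition. Fold changes are log2 values of iADKO against fl/fl from edgeR's quasi-likelihood test, with p-values adjusted over all genes tested by the Benjamini-Hochberg method and a threshold of 0.05.

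The targeted gene was measured first. *Lmna* was between 74.7 and 98.5 CPM in fl/fl, with a median of 83.5, and between 80.1 and 109 CPM, with a median of 96.8, in the libraries labelled iADKO. The ranges overlapped, and 3 libraries labelled iADKO were above every fl/fl library. The log2 fold change was 0.19 ± 0.08 (SE) and did not pass the test (edgeR adjusted p = 0.0785), but it did without fl/fl replicate 1 (log2 fold change 0.23, edgeR adjusted p = 0.0411) or without iADKO replicate 6 (0.24, edgeR adjusted p = 0.0208). Thus *Lmna* counts did not mark the labelled knockouts by a lower level, and every direction given here rests on the labels. Counts were summed over the whole gene, of which the deletion takes only part, and adipocytes are only some of the cells in the tissue, so the gene total cannot show the loss of the deleted exons.

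A pair of libraries stood apart from their genotype over all genes. On the first principal component of log2 CPM, which held 37.5% of the variance, 6 fl/fl libraries were between -46.6 and -7.62, while fl/fl replicate 5 was at 18.6. The libraries labelled iADKO were between 24.7 and 36.9, apart from replicate 6 at 6.51. Counts of genes are therefore given for all 13 libraries and again without these 2. That choice was made after seeing the values, and leaving out the libraries nearest the other genotype on this component widens the gap between the groups by construction. On the second component iADKO replicate 6 also stood apart, at -46.9, where all other libraries were between -12.4 and 19.8.

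The mouse numbers in the library labels were divided into 4 runs, here called series, of which 2 hold mice of each genotype. The labels do not say whether a series was a litter or a batch, and the division is uncertain, since iADKO replicate 1 lies as far from the rest of its series as the first series lies from the next. With the series as a block in the fit, 1986 genes passed instead of 5104, and with iADKO replicate 1 as a series of its own, a choice made after seeing the values, 54 passed. In these fits the genotypes are compared within series, so that 9 libraries bear on the difference in the former and 8 in the latter.

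Of the 10 genes, 5 rose and 0 fell in the libraries labelled iADKO (*Tnf*, *Nfkb1*, *Nfkb2*, *Nfkbia* and *Tnfaip3*). Over all genes tested, 30.5% passed the threshold, 14.1% as higher and 16.3% as lower. With the series as a block *Tnfaip3* alone of the 10 passed (edgeR), beside 4.68% of all genes as higher. With iADKO replicate 1 as its own series 0 of the 10 passed in edgeR, the one tool run with that block, beside 0.239% of all genes as higher. In that fit 2 of the 10 had an unadjusted p under 0.05 in edgeR (*Nfkb2* and *Tnfaip3*). That threshold is looser, and the share of all genes under it was not counted. The median log2 fold change was 0.25 over the 10 genes and 0.03 over all genes tested. No member separated the genotypes: in each of the 10, at least 1 fl/fl library lay within the range of the libraries labelled iADKO. This count of 0 is near the 6.64% of all genes tested whose groups did not overlap. Without fl/fl replicate 5 and iADKO replicate 6, 7 of the 10 were higher and 0 lower, adding *Tnfrsf1b* and *Ikbkb*, beside 19.6% of all genes tested in that fit that were higher.

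**Figure D1:**
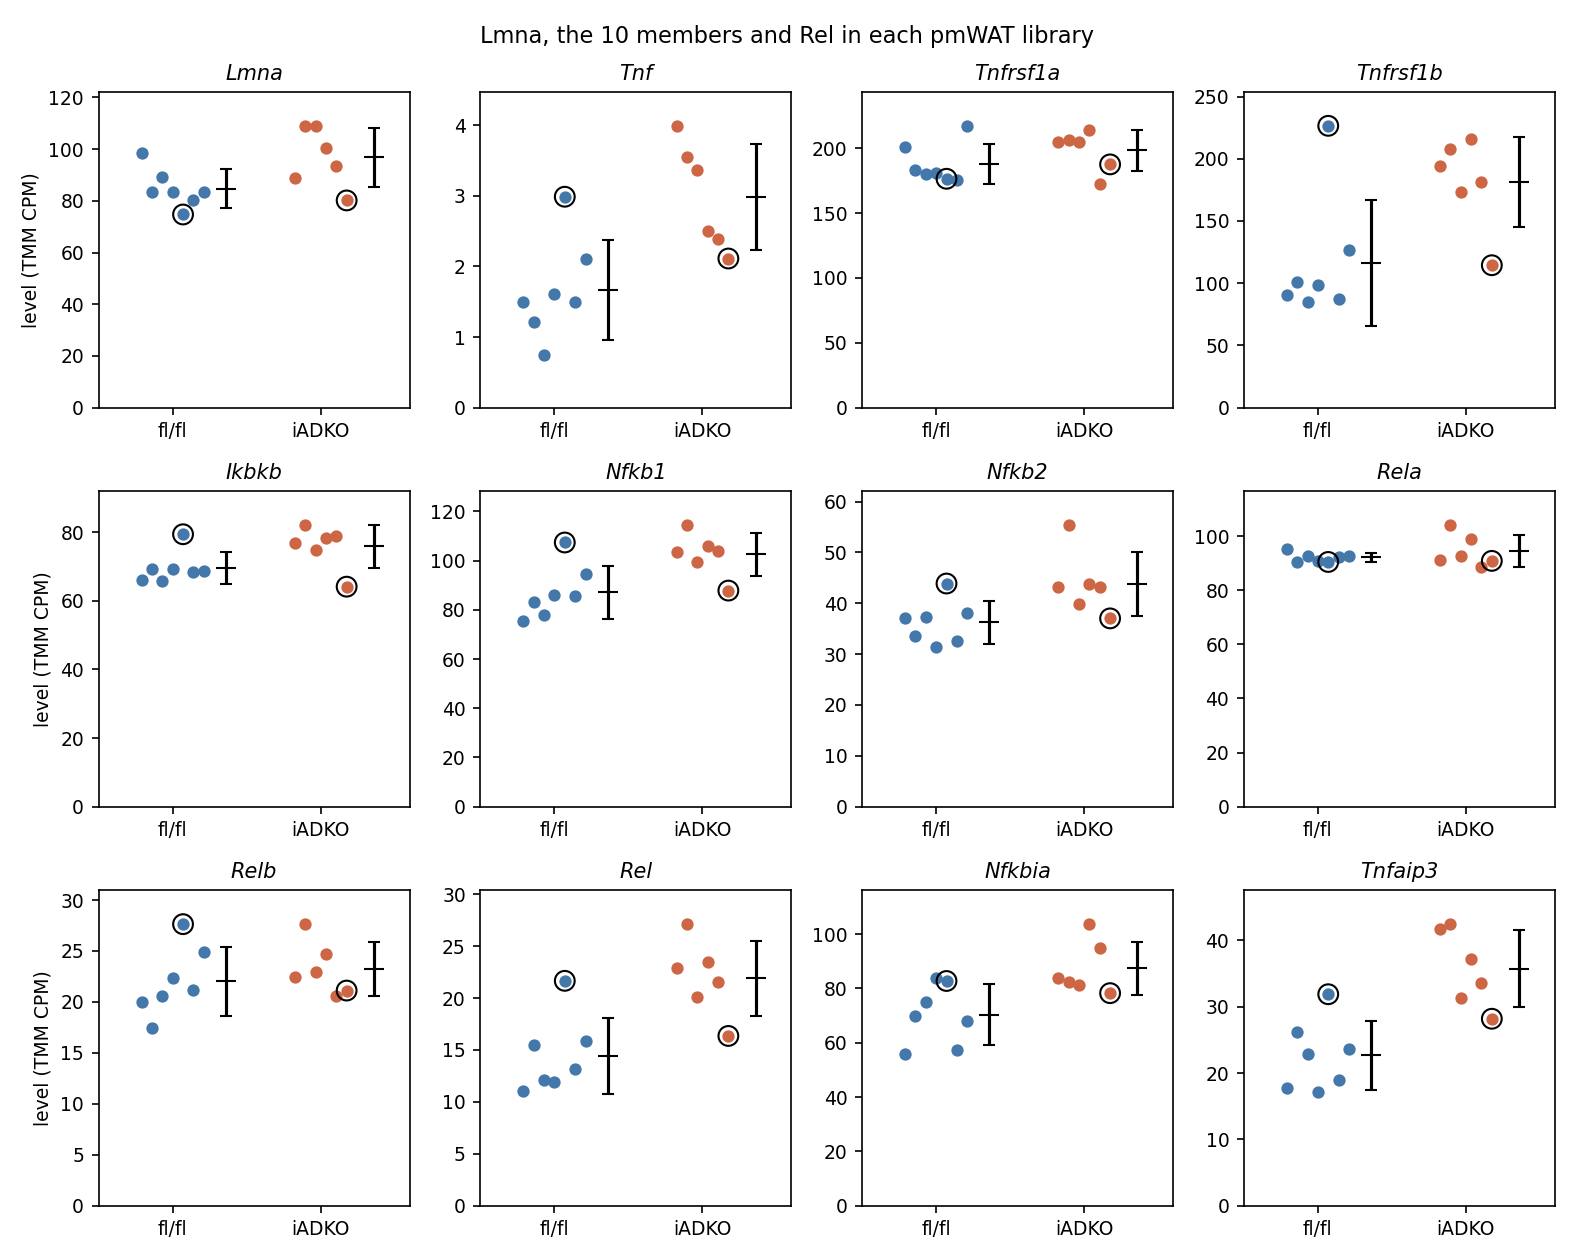
Levels in TMM-scaled CPM (vertical axes, each from 0) of *Lmna*, the 10 genes and *Rel* in each of 7 fl/fl libraries and 6 libraries labelled iADKO. Points are libraries in the order of their replicate numbers, bars are mean ± SD, and black rings mark fl/fl replicate 5 and iADKO replicate 6, which are the highest of fl/fl and the lowest of iADKO in *Tnf*, *Tnfrsf1b*, *Ikbkb*, *Nfkb1*, *Nfkb2*, *Tnfaip3* and *Rel*.

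*Tnf* (ENSMUSG00000024401, chr17:35418357-35420983 on GRCm39, as for all genes located here, reverse strand) encodes the ligand. Its level in fl/fl was between 0.751 and 2.99 CPM with a median of 1.49, and in the libraries labelled iADKO between 2.11 and 3.99 CPM with a median of 2.93. In all, 6 of 7 fl/fl libraries were below every library labelled iADKO, and fl/fl replicate 5, the highest of its group, was above iADKO replicates 4, 5 and 6. This was a log2 fold change of 0.84 ± 0.26 (SE; edgeR adjusted p = 0.0255), or 1.78-fold. These levels rest on 13 to 59 counts per library in fl/fl and 43 to 82 in the libraries labelled iADKO, the fewest of the 10 genes. The call was lost without iADKO replicate 1, 2 or 3, at edgeR adjusted p = 0.0583, 0.0564 and 0.0525. With the series as a block it was also lost, while the log2 fold change was 0.93 ± 0.35 (SE, edgeR adjusted p = 0.0962).

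The receptors are the broadly expressed TNFR1, encoded by *Tnfrsf1a* (ENSMUSG00000030341, chr6:125325566-125339632, forward strand), and TNFR2, encoded by *Tnfrsf1b* (ENSMUSG00000028599, chr4:144938938-144973477, reverse strand) and found mainly on immune and endothelial cells. *Tnfrsf1a* was between 175 and 217 CPM in fl/fl and between 172 and 214 CPM in the libraries labelled iADKO. Its groups covered almost the same range, with a log2 fold change of 0.08 ± 0.07 (SE; edgeR adjusted p = 0.385). *Tnfrsf1b* was between 84.8 and 226 CPM in fl/fl with a median of 98.7, and between 114 and 216 CPM with a median of 188 in the libraries labelled iADKO. In this gene fl/fl replicate 5 was the highest of all 13 libraries, while the other fl/fl libraries reached no more than 127 CPM, and iADKO replicate 6 was the lowest of its group.

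The log2 fold change of *Tnfrsf1b* was 0.64 ± 0.23 (SE) and fell just short of the threshold (edgeR adjusted p = 0.0526). It became 0.89 (edgeR adjusted p = 0.000387) without fl/fl replicate 5, 0.74 (edgeR adjusted p = 0.0264) without iADKO replicate 6 and 0.96 (edgeR adjusted p = 6.9e-06) without either. The Wald test of DESeq2 called it (adjusted p = 0.0212), as did limma on the deposited rlog values (adjusted p = 0.0334) and edgeR with at least 10 counts required in every library (adjusted p = 0.0460). It was not called with DESeq2's size factors in edgeR (adjusted p = 0.0555), with no filter on low counts (0.139), with the series as a block (0.173) or without any 1 of the other 11 libraries (edgeR adjusted p from 0.0658 to 0.104). Whether the receptors differed unequally was asked of their ratio, which does not depend on the scaling of libraries. The log2 ratio of *Tnfrsf1b* to *Tnfrsf1a* CPM was -0.77 ± 0.52 (SD, n = 7) in fl/fl and -0.16 ± 0.29 (SD, n = 6) in the libraries labelled iADKO. The difference of 0.62 had p = 0.0286 in an exact two-sided permutation test over 1716 splits, and 0.0603 after adjustment over 3 ratios, so it did not pass. In 6 of 7 fl/fl libraries the ratio was below every library labelled iADKO, and fl/fl replicate 5 was above them all at 0.36. Without fl/fl replicate 5 the difference was 0.81 (adjusted p = 0.00649, exact permutation), and without iADKO replicate 6 it was 0.73 (adjusted p = 0.0455, exact permutation). In the former case the groups no longer overlapped, so p before adjustment was the smallest that the test allows with those libraries.

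*Ikbkb* (ENSMUSG00000031537, chr8:23148709-23196607, reverse strand) encodes IKKβ, the kinase that phosphorylates inhibitors of the classical pathway. It was between 65.7 and 79.4 CPM in fl/fl with a median of 68.7, and between 64.1 and 82.2 CPM with a median of 77.7 in the libraries labelled iADKO. Apart from fl/fl replicate 5 and iADKO replicate 6, which took the place of the other genotype, the groups lay apart by a narrow margin. The log2 fold change was 0.13 ± 0.06 (SE; edgeR adjusted p = 0.130). It passed the test as 0.16 without fl/fl replicate 5 (edgeR adjusted p = 0.0299) and 0.17 without iADKO replicate 6 (edgeR adjusted p = 0.0223).

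Among the subunits, *Nfkb1* (ENSMUSG00000028163, chr3:135290264-135397742, reverse strand) encodes p105, the precursor of p50, and *Nfkb2* (ENSMUSG00000025225, chr19:46292759-46303812, forward strand) encodes p100, the precursor of p52 in the alternative pathway. *Nfkb1* was between 75.4 and 107 CPM in fl/fl with a median of 85.8, and between 87.8 and 115 CPM with a median of 104 in the libraries labelled iADKO. Its log2 fold change was 0.23 ± 0.08 (SE; edgeR adjusted p = 0.0416). For this gene 5 of 7 fl/fl libraries were below every library labelled iADKO, while fl/fl replicate 5 exceeded all of those except iADKO replicate 2. *Nfkb2* was between 31.4 and 43.9 CPM in fl/fl with a median of 37.1, and between 37.0 and 55.4 CPM with a median of 43.2 in the libraries labelled iADKO, a log2 fold change of 0.27 ± 0.09 (SE; edgeR adjusted p = 0.0419). Here the highest library was iADKO replicate 2, fl/fl replicate 5 was next, and the groups overlapped from 37.0 to 43.9 CPM.

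*Nfkb1* and *Nfkb2* passed the test by a small margin. The call of *Nfkb1* was lost in 10 of 13 fits that left out 1 library (edgeR adjusted p from 0.0603 to 0.0956), namely without fl/fl replicate 1, 2, 3, 4 or 6 or iADKO replicate 1, 2, 3, 4 or 5, and that of *Nfkb2* in 9 of 13 (0.0598 to 0.0945), without fl/fl replicate 1, 2, 3, 4 or 6 or iADKO replicate 1, 2, 4 or 5. With DESeq2's size factors in edgeR the adjusted p was 0.0508 for *Nfkb1* and 0.0504 for *Nfkb2*, and with no filter on low counts 0.0707 and 0.0636. With the series as a block the calls were lost, at log2 fold changes of 0.26 for *Nfkb1* (edgeR adjusted p = 0.125) and 0.30 for *Nfkb2* (0.124). *Nfkb2* also lost its call with limma on rlog values (adjusted p = 0.0543). The log2 ratio of *Nfkb2* to *Nfkb1* was -1.26 ± 0.16 (SD, n = 7) in fl/fl and -1.24 ± 0.10 (SD, n = 6) in the libraries labelled iADKO, a difference of 0.03 with adjusted p = 0.717 in the exact permutation test. On the opposite strand, *Nfkb2* exons overlap those of *Psd* by 1933 bases, and whether counting used the strand is not given in the sources used here. *Psd* itself averaged 5.67 CPM in fl/fl (SD 0.841, n = 7) and 8.11 CPM (SD 2.52, n = 6) in the libraries labelled iADKO, and was itself called higher (log2 fold change 0.52, edgeR adjusted p = 0.0306). If the strand was not used in counting, reads of the pair in the shared bases were not separated. The same holds for the long noncoding gene *4833438C02Rik*, with 1081 shared bases and 7.47 and 7.62 CPM on average, which did not pass. Shorter overlaps on the opposite strand, of 19 to 519 bases, were annotated for 7 other members, and none for *Tnf* and *Relb*.

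*Rela* (ENSMUSG00000024927, chr19:5687493-5698161, forward strand) encodes p65, which carries the activation domain of the common p50 and p65 dimer, and *Relb* (ENSMUSG00000002983, chr7:19339017-19363425, reverse strand) encodes the partner of p52. *Rela* was between 90.5 and 95.5 CPM in fl/fl and between 88.7 and 104 CPM in the libraries labelled iADKO. Relative to its level, it varied the least of the 10 genes among fl/fl libraries, and its log2 fold change was 0.04 ± 0.04 (SE; edgeR adjusted p = 0.560). *Relb* was between 17.5 and 27.6 CPM in fl/fl and between 20.5 and 27.7 CPM in the libraries labelled iADKO, with a log2 fold change of 0.08 ± 0.10 (SE; edgeR adjusted p = 0.584). Neither gene passed the test in any fit run here.

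The subunit outside the 10 genes, c-Rel, is best known from lymphocytes and myeloid cells. Its gene *Rel* was between 11.03 and 21.7 CPM in fl/fl with a median of 13.2, and between 16.4 and 27.2 CPM with a median of 22.2 in the libraries labelled iADKO. Again 6 of 7 fl/fl libraries were below every library labelled iADKO, and fl/fl replicate 5 lay among them. *Rel* rose by a log2 fold change of 0.60 ± 0.15 (SE; edgeR adjusted p = 0.0102), which held in each of the 13 fits that left out 1 library (adjusted p from 0.00044 to 0.0274) and was lost with the series as a block (edgeR adjusted p = 0.0658).

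*Nfkbia* (ENSMUSG00000021025, chr12:55535332-55539432, reverse strand) encodes IκBα, which binds p65-containing dimers and is resynthesized after NF-κB activation. It was between 56.0 and 83.8 CPM in fl/fl with a median of 70.0, and between 78.3 and 104 CPM with a median of 83.2 in the libraries labelled iADKO. The groups overlapped through fl/fl replicates 4 and 5, and 3 libraries labelled iADKO were above every fl/fl library. *Nfkbia* rose by a log2 fold change of 0.31 ± 0.10 (SE; edgeR adjusted p = 0.0327). It lost the call without fl/fl replicate 1, 2, 6 or 7 or iADKO replicate 4 or 5 (edgeR adjusted p from 0.0522 to 0.0812). The call was also lost with no filter on low counts (edgeR adjusted p = 0.0510) and with the series as a block (log2 fold change 0.23, edgeR adjusted p = 0.173). Relative to the subunit it binds, the log2 ratio of *Nfkbia* to *Rela* was -0.40 ± 0.25 (SD, n = 7) in fl/fl and -0.12 ± 0.17 (SD, n = 6) in the libraries labelled iADKO. The difference of 0.29 had p = 0.0402 in the exact permutation test and 0.0603 after adjustment, and did not pass. Without fl/fl replicate 5 it was 0.33 (adjusted p = 0.0357, exact permutation).

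*Tnfaip3* (ENSMUSG00000019850, chr10:18874201-18891405, reverse strand) encodes A20, a ubiquitin-editing enzyme that ends TNF receptor signaling. It was between 17.2 and 31.9 CPM in fl/fl with a median of 22.9, and between 28.2 and 42.5 CPM with a median of 35.4 in the libraries labelled iADKO. Only fl/fl replicate 5 reached into the range of the other group, and 4 of the 6 libraries labelled iADKO exceeded it. This amounted to a log2 fold change of 0.66 ± 0.15 (SE; edgeR adjusted p = 0.00467), or 1.58-fold. Of the 10 genes, *Tnfaip3* alone passed in each of the 13 fits that left out 1 library (adjusted p from 0.000434 to 0.0138). It also passed with the series as a block (log2 fold change 0.69, edgeR adjusted p = 0.0398), but not with iADKO replicate 1 as a series of its own (0.64, edgeR adjusted p = 0.122).

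**Figure D2:**
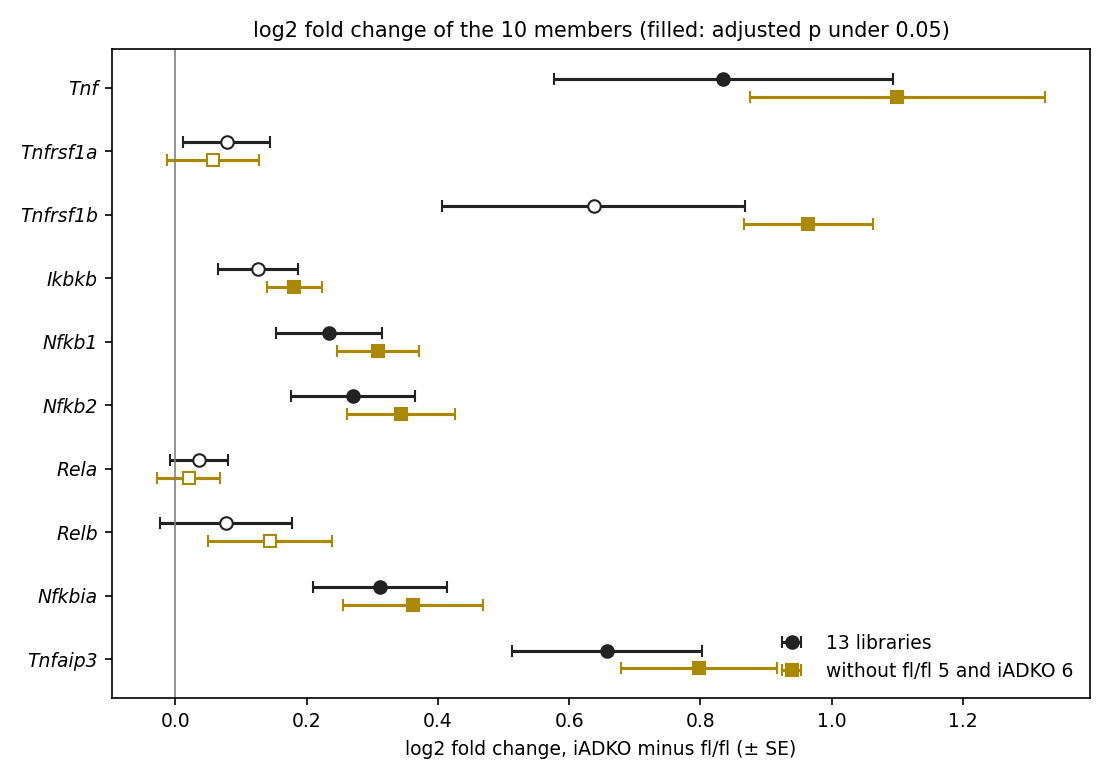
log2 fold change of each of the 10 genes, iADKO minus fl/fl (horizontal axis), with its SE, from all 13 libraries (circles) and without fl/fl replicate 5 and iADKO replicate 6 (squares). Filled symbols have an edgeR adjusted p under 0.05, which are 5 genes with all libraries and 7 without the 2 libraries, and every estimate lies above 0.

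Within the series, the values of the 10 genes were uneven. In the series with fl/fl replicates 1, 2 and 3 and iADKO replicates 1 and 2, all 10 genes were higher in the libraries labelled iADKO, with a median log2 difference of 0.41 and values of 1.67 for *Tnf* and 0.93 for *Tnfaip3*. In the series with fl/fl replicates 4 and 5 and iADKO replicates 4 and 6, 8 of 10 were higher with a median of 0.07, and *Tnf* differed by 0.06 and *Tnfaip3* by 0.46. This latter series holds the pair of libraries that stood apart. With iADKO replicate 1 as a series of its own, the log2 fold changes in the block fit were 0.73 for *Tnf*, 0.24 for *Nfkb1*, 0.33 for *Nfkb2*, 0.20 for *Nfkbia* and 0.64 for *Tnfaip3*, with edgeR adjusted p from 0.122 to 0.352 over these 5.

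Levels of different genes were compared per kilobase of exon (RPKM, CPM divided by the length of all annotated exons in kilobases). In fl/fl, *Tnfrsf1a* was the most abundant at 59.6 ± 4.96 RPKM (SD, n = 7), followed by *Nfkbia* at 36.3 ± 5.73, *Rela* at 28.2 ± 0.544 and *Tnfrsf1b* at 23.5 ± 10.2. *Tnfrsf1a* lay above *Nfkbia* in every library, whereas the ranges of *Nfkbia* and *Rela*, and of *Rela* and *Tnfrsf1b*, overlapped. *Nfkb1* came next at 6.79 ± 0.843 RPKM, below all values of *Tnfrsf1b*. *Nfkb2* at 4.59 ± 0.536 and *Relb* at 4.33 ± 0.661 overlapped each other. Then came *Ikbkb* at 2.86 ± 0.189, *Tnfaip3* at 2.33 ± 0.540 and, with the lowest mean, *Tnf* at 1.01 ± 0.434 RPKM, and the range of *Tnfaip3* overlapped those of *Ikbkb* and *Tnf*. In the libraries labelled iADKO the order was the same except that *Tnfrsf1b*, at 36.6 ± 7.33 RPKM (SD, n = 6), stood before *Rela* at 28.9 ± 1.82, and *Tnfaip3*, at 3.68 ± 0.593, before *Ikbkb* at 3.12 ± 0.257. Each of these exchanged pairs overlapped in its RPKM range, as did *Nfkbia* and *Tnfrsf1b*, *Nfkb1* and *Nfkb2*, *Nfkb2* and *Relb*, and *Relb* and *Tnfaip3*. *Ikbkb* has 24325 bases of annotated exon, more than any other of the 10 genes, which lowers its value on this scale.

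The rest of the pathway was described with a list of 102 further genes in 9 roles. Of these, 95 were tested, 34 rose and 4 fell, where 14.1% of all genes tested were higher and 16.3% lower, with a median log2 fold change of 0.24 beside 0.03 over all genes tested. Groups did not overlap for 8 of the 34 (23.5%), a share near the 19.1% of all genes that rose. Without fl/fl replicate 5 and iADKO replicate 6, 42 rose and 5 fell, beside 19.6% higher and 23.3% lower over all genes. With the series as a block 16 rose and 0 fell, beside 4.68% and 7.17%. With iADKO replicate 1 as its own series 3 rose (*Tnfrsf12a*, *Eda2r* and *Cxcl10*) and 0 fell, beside 0.239% and 0.0836%. The shares over all genes are the background of the counts by role too, and in the roles of inhibitors, kinases, adaptors, ubiquitin regulators and shedding genes no more than 3 genes were higher with all libraries. Of the genes named here, *Map3k8*, *Map3k14*, *Traf1*, *Ltb*, *Tnfrsf12a*, *Eda2r*, *Ngfr*, *Tnfrsf4*, *Cxcl10*, *Ccl2*, *Sele* and *Gadd45b* passed with the 4 series as a block, while *Rel*, *Nfkbid* (edgeR adjusted p = 0.0718), *Fadd* (0.0832), *Sod2* (0.0677) and *Birc3* (0.152) did not. Neither did *Tbk1*, *Map3k7*, *Traf2*, *Rnf31*, *Adam17*, *Tnfsf12*, *Tnfsf14* and *Nos2* (edgeR adjusted p from 0.0660 to 0.332). The genes *Ube2v1*, *Lta*, *Tnfsf4*, *Cd70*, *Il6* and *Csf2* were left out of the test by the filter on low counts. *Ccl20* was not found in the count table, so only its promoter was searched.

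Among the other inhibitors, 1 of 5 rose, a share near the 14.1% of all genes tested. This was *Nfkbid*, a nuclear IκB protein, at 3.43 CPM in fl/fl and 6.51 CPM in the libraries labelled iADKO on average (log2 fold change 0.92 ± 0.24, SE; edgeR adjusted p = 0.0108). Without fl/fl replicate 5 and iADKO replicate 6, 3 of the 5 rose, beside 19.6% of all genes. Of 11 kinases and partners upstream of the inhibitors, 3 rose and 1 fell, beside 14.1% and 16.3% of all genes tested. Without these libraries the counts were 4 and 2, beside 19.6% and 23.3%. *Map3k14*, which encodes the kinase NIK of the alternative pathway, rose by a log2 fold change of 0.56 ± 0.11 (SE; edgeR adjusted p = 0.00199), and its groups did not overlap. *Map3k8*, encoding a kinase bound by p105, rose by 0.64 ± 0.12 (edgeR adjusted p = 0.00198). *Tbk1* rose by 0.19 and *Map3k7*, which encodes the IKK-activating kinase TAK1, fell by 0.12, each passing narrowly (edgeR adjusted p = 0.0284 and 0.0312). The other IKK subunits did not pass, at log2 fold changes of -0.04 for *Chuk* and -0.11 for *Ikbkg*.

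Of 12 adaptors of receptor complexes, 3 rose and 1 fell, beside 14.1% and 16.3% of all genes tested. Without fl/fl replicate 5 and iADKO replicate 6 the counts were 4 and 1, beside 19.6% and 23.3%. *Traf1*, an NF-κB target that binds TNFR2, went from 9.11 to 14.5 CPM on average (log2 fold change 0.67 ± 0.13, SE; edgeR adjusted p = 0.00232). *Birc3*, the ubiquitin ligase cIAP2, rose by 0.36 and *Traf2* by 0.25, while *Fadd*, the adaptor that recruits caspase-8, fell by 0.29 on the log2 scale (edgeR adjusted p = 0.00874). Of ubiquitin regulators besides *Tnfaip3*, 1 of 9 rose (*Rnf31*, log2 fold change 0.16, edgeR adjusted p = 0.0429), a share near the 14.1% of all genes tested, and 3 without the same libraries. Of 4 genes for shedding of TNF from the membrane, the protease *Adam17* rose (log2 fold change 0.33, edgeR adjusted p = 0.0308), with 1 of the 4 higher without those libraries too.

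TNF family receptors other than those of TNF were the role with the most changed genes, with 12 of 19 higher and 0 lower beside 14.1% and 16.3% of all genes tested, and 13 and 0 without fl/fl replicate 5 and iADKO replicate 6. *Tnfrsf12a*, the receptor of TWEAK, went from 7.37 to 21.2 CPM on average (log2 fold change 1.53 ± 0.17, SE; edgeR adjusted p = 0.000168). *Eda2r*, a receptor of ectodysplasin A2, went from 6.10 to 16.6 CPM (log2 fold change 1.44 ± 0.13, SE; edgeR adjusted p = 5.9e-05). For each of these, all 6 libraries labelled iADKO were above every fl/fl library, as they were for *Tnfrsf4*, encoding OX40 (log2 fold change 0.83), and *Cd40*. The level of *Tnfrsf4* was low, on average 0.884 CPM in fl/fl and 1.59 CPM in the libraries labelled iADKO. It rested on 9 to 23 and 26 to 45 counts per library. The nerve growth factor receptor gene *Ngfr* rose by 1.24 ± 0.36 (SE; edgeR adjusted p = 0.0209), with overlap through fl/fl replicate 6, and missed the threshold without iADKO replicate 2 (0.0521). Of 12 other TNF family ligands, *Ltb*, *Tnfsf12* and *Tnfsf14* rose, by log2 fold changes of 0.45, 0.38 and 0.47, and 4 of the 12 were higher without those libraries. *Tnfsf12* encodes TWEAK itself.

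Of 22 NF-κB target genes tested, 9 rose and 2 fell, beside 14.1% and 16.3% of all genes tested. The counts were again 9 and 2 without fl/fl replicate 5 and iADKO replicate 6, but *Sele* and *Bcl2l1* (edgeR adjusted p = 0.0519) no longer passed and *Csf1* (0.0459) and *Bcl2a1b* (0.0391) did. The lowest log2 fold change, -1.36 for *Saa3*, an acute-phase gene, did not pass (edgeR adjusted p = 0.327). *Saa3* was at 655 CPM in fl/fl replicate 7, while its median was 15.8 CPM in fl/fl and 49.1 CPM in the libraries labelled iADKO. *Cxcl10*, a chemokine for T cells, went from 2.88 to 9.31 CPM on average (log2 fold change 1.69 ± 0.19, SE; edgeR adjusted p = 0.000162), and *Ccl2*, the chemokine for monocytes, from 4.30 to 11.6 CPM (1.43 ± 0.29; edgeR adjusted p = 0.00313). These were without overlap between the groups, as was the stress gene *Gadd45b* (0.86). *Sele*, the endothelial adhesion gene E-selectin, rose by 0.89 at about 1 CPM. In the other direction, *Sod2*, the mitochondrial superoxide dismutase, fell from 147 to 112 CPM (log2 fold change -0.39 ± 0.08, SE; edgeR adjusted p = 0.00317), and *Nos2*, the inducible nitric oxide synthase, fell by 0.51 (edgeR adjusted p = 0.0392). Calls that passed narrowly were lost in some of the 13 fits without 1 library, in 6 for *Tbk1*, 7 for *Map3k7*, 10 for *Traf2*, 9 each for *Rnf31*, *Adam17*, *Ltb* and *Nos2*, 2 for *Tnfsf12*, 11 for *Tnfsf14* and 8 for *Sele*, with adjusted p up to 0.107. With no filter on low counts *Tbk1*, *Map3k7*, *Traf2*, *Rnf31*, *Ltb*, *Tnfsf14*, *Ngfr* and *Sele* also missed the threshold (edgeR adjusted p from 0.0606 to 0.144), and *Sele* did without fl/fl replicate 5 and iADKO replicate 6 (log2 fold change 0.64, edgeR adjusted p = 0.112). With DESeq2's size factors *Traf2* (edgeR adjusted p = 0.0524) and *Rnf31* (0.0603) lost the call, *Rnf31* did so in DESeq2 (0.0697), and *Rnf31*, *Sele* and *Nos2* in limma on rlog values (adjusted p from 0.0514 to 0.0715). *Il1b*, at 1.85 and 3.01 CPM, and *Cxcl1*, at 1.74 and 3.52 CPM, did not pass. The members *Tnf* and *Nfkb1*, and *Ccl2*, *Cxcl10*, *Bcl2l1*, *Fas* and *Tnfrsf10b* from the longer list, also stand in gene lists that the study chose on these samples, so they are not independent evidence of a direction.

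**Figure D3:**
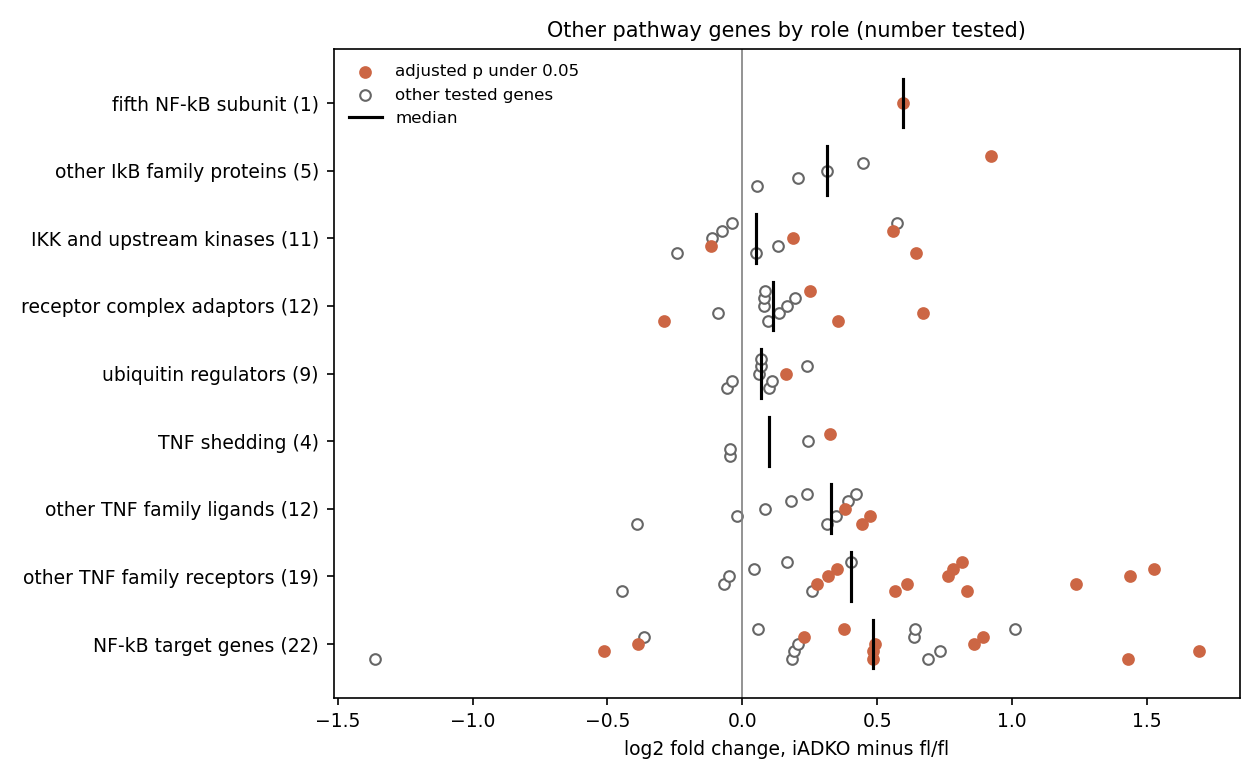
log2 fold change, iADKO minus fl/fl (horizontal axis), of the 95 tested genes among the 102 further genes of the pathway, by role (rows, with the number tested). Filled points have an edgeR adjusted p under 0.05, open points do not, and black bars are medians, which are highest for *Rel* alone (0.60) and for the NF-κB target genes (0.49).

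Whole pmWAT holds many cell types, and in such tissue fewer cells of a type and less RNA per cell cannot be told apart. The macrophage list, with *Lyz2* as its most abundant gene and no gene at 0 in any library, had 6 of 9 genes higher and 0 lower, beside 14.1% higher over all genes tested, with *Lyz2* itself not called. In the fit without fl/fl replicate 5 and iADKO replicate 6, 8 of the 9 were higher, beside 19.6% over all genes. Its summed level was between 2140 and 5601 CPM in fl/fl with a median of 2545, and between 3312 and 5733 CPM with a median of 4857 in the libraries labelled iADKO. The sum was highest among fl/fl in replicate 5 and lowest among the libraries labelled iADKO in replicate 6. The same holds for these libraries in *Tnf*, *Tnfrsf1b*, *Ikbkb*, *Nfkb1*, *Nfkb2*, *Tnfaip3* and *Rel*, and the part of macrophage RNA in those results was not tested.

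The adipocyte list, led by *Car3* and with no gene at 0, had 7 of 7 genes lower, beside 16.3% of all genes tested, and also without fl/fl replicate 5 and iADKO replicate 6, beside 23.3%. Its summed level was between 19659 and 34590 CPM in fl/fl and between 11566 and 20318 CPM in the libraries labelled iADKO, with fl/fl replicate 5 the lowest of its group and iADKO replicate 6 the highest of its own. So the defining markers of the labelled tissue were present in all 13 libraries. Of the smaller immune lists, beside the 14.1% of all genes tested that were higher, 3 of 6 T cell genes, 2 of 6 B cell, 2 of 4 plasma cell, 2 of 5 NK cell, 4 of 6 dendritic cell, 3 of 5 mast cell and 1 of 5 neutrophil genes (*Retnlg*) were higher and 0 lower in each. Without fl/fl replicate 5 and iADKO replicate 6, beside 19.6% of all genes, these counts were 3, 2, 3, 1, 4, 3 and 2. Of endothelial genes, 0 of 5 were higher and 2 were lower with or without those libraries. With all libraries 0 of 5 progenitor and 0 of 4 mesothelial genes passed, but without the same libraries 2 progenitor genes (*Pdgfra* and *Dcn*, edgeR adjusted p = 0.00208 and 0.00901) and 2 mesothelial genes (*Msln* and *Lrrn4*, 0.0341 and 0.0497) were higher. The part of any of these cell types in the values of the 10 genes was not tested.

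Across the 13 libraries, with each genotype's mean subtracted, log2 CPM of 12755 protein-coding genes were compared with those of *Tnf*, *Nfkb1* and *Nfkb2* by Pearson's r, as a description of likeness within genotypes. *Nfkb1* was most like *Arhgap4* (r = 0.978), *Pik3cd* and *Fes*. *Nfkb2* was most like *Traf3* (r = 0.954), followed by *E2f2* and *Med15*. *Tnf* was most like *Arhgef6* (r = 0.927), *Mta2* and *Khdrbs1*. The highest of so many values is large by selection, and the libraries that stood apart enter each of them.

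Promoters of the 10 genes were searched for the κB consensus, on either strand, a step chosen with the fold changes known. It used RefSeq sequences of 300 bases from 250 before to 50 after each gene start on GRCm38.p6. Entries were found for 7 of the 10 genes, and not for *Nfkb1*, *Relb* and *Ikbkb*. A match was present in 3 of the 7 (*Nfkbia*, *Tnfaip3* and *Nfkb2*), and not in *Tnf*, which also rose, nor in *Tnfrsf1a*, *Tnfrsf1b* or *Rela*. Of all 32851 promoters of this length 8.46% held a match, and of all genes with an entry 9.55%. *Tnfaip3* had a match at 1 of 2 listed starts, and *Nfkb2* at each of 3. Among the further genes of the pathway, 23 of 81 with an entry held a match: 5 of 26 that rose, 14 of 47 that were tested and not called, and 2 of 3 that fell, the other 5 genes being untested. A match only says that the letters are there, and binding was not measured.

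The 170 bases before the start are shown for the 3 matching genes, for *Rel* and *Cxcl10*, which also rose and matched, and for *Rela*, which did neither. Capitals mark the κB consensus, and sequences run 5′ to 3′ on the strand of the gene. They lie at chr12:55492648-55492817 (*Nfkbia*, reverse strand), chr10:19015411-19015580 (*Tnfaip3*, reverse), chr19:46304567-46304736 (*Nfkb2*, forward), chr11:23770970-23771139 (*Rel*, reverse), chr5:92348890-92349059 (*Cxcl10*, reverse) and chr19:5637371-5637540 (*Rela*, forward). Matches begin 29 bases before the start in *Nfkbia*, 125 and 12 in *Tnfaip3*, 39 and 11 in *Nfkb2*, 92 in *Rel*, and 159 and 104 in *Cxcl10*.
Nfkbia: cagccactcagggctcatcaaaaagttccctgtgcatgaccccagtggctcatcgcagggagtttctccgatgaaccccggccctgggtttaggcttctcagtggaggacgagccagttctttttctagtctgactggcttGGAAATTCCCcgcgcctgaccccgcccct
Tnfaip3: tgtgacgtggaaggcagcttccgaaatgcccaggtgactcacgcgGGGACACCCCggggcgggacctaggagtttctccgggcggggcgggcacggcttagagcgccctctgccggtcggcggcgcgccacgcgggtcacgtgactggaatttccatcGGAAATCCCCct
Nfkb2: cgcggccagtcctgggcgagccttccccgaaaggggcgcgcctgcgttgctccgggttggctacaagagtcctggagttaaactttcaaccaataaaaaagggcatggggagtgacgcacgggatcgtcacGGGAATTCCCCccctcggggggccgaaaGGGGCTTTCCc
Rel: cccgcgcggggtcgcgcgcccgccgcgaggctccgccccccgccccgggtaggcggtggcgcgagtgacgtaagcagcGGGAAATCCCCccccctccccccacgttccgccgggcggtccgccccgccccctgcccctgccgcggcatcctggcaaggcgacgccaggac
Cxcl10: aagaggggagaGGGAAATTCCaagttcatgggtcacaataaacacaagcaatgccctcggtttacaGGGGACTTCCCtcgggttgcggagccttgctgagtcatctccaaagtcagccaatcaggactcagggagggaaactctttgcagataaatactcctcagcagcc
Rela: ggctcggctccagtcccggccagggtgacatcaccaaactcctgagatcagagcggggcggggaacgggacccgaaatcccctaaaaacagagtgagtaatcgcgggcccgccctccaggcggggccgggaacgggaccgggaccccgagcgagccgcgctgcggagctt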

How the data were processed

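The sample labels gave each genotype and replicate number. The authors deposited raw counts per gene for 33618 Ensembl genes, and log2 values that they made from these counts with the regularized log (rlog) of DESeq2. According to the study's methods and the submitters' processing notes, strand-specific libraries were checked with FastQC 0.12.1 and aligned with STAR 2.7.11a to mm39. The counting tool, its strand setting and the gene annotation are not given in the sources used here. Gene names, exon lengths and coordinates came from GENCODE vM39 (GRCm39), which held 33184 of the identifiers, and promoters from RefSeq (GRCm38.p6).

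In R 4.3.3, counts were filtered with filterByExpr, TMM-normalized and tested with the robust quasi-likelihood test of edgeR 4.0.16. Ratios of genes were compared by exact two-sided permutation, whose smallest p is 0.000583 with all 13 libraries and larger with fewer. DESeq2 1.42.0 and limma 3.58.1 served as alternatives. The tests were tested on a single simulated data set, in which DESeq2 made a larger share of false calls than edgeR. In that set edgeR recovered a smaller share of the changes put in than DESeq2, and missed most of the smaller ones. Marker lists covered adipocytes, macrophages, dendritic cells, neutrophils, T, B, plasma, NK and mast cells, endothelium, progenitors, mesothelium, skeletal muscle and epithelium. Beyond the 10 genes, *Lmna* and *Rel*, named genes were up to 4 per role with the largest absolute log2 fold change among those passing, and any that passed against the direction of most of its role. *Chuk*, *Ikbkg*, *Cd40*, *Il1b*, *Cxcl1*, *Psd*, *Saa3*, *Csf1*, *Bcl2a1b*, *Bcl2l1*, *4833438C02Rik* and the cell type markers were named after their values were seen. *Fas* and *Tnfrsf10b* were named only as members of the study's gene lists. The 10 genes and all lists were chosen with earlier results of these data known.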

Additional observations from a re-analysis of the deposited data

Results flagged for a closer look

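In 78 groups of libraries, the highest or lowest value lay far from the rest, by its gap to the nearest value relative to the range of the group, 16 times. Chance marks about 1 in 20 groups, and genes measured in the same libraries are not independent. Of the 16 values, 8 belong to fl/fl replicate 5. It had the highest level of its group in *Tnfrsf1b* (226 CPM), *Ikbkb* (79.4 CPM), *Traf1* (14.0 CPM), *Birc3* (38.5 CPM), *Adam17* (99.2 CPM) and *Eda2r* (8.86 CPM), the lowest in *Sod2* (115 CPM), and the highest log2 ratio of *Tnfrsf1b* to *Tnfrsf1a* (0.36). In each of these except *Eda2r*, fl/fl replicate 5 lay within or beyond the range of the libraries labelled iADKO. The library labelled iADKO replicate 6 had the lowest *Adam17* (70.7 CPM) and the highest *Sod2* (133 CPM) of its group.

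iADKO replicate 2 was the highest of its group in *Nfkb2* (55.4 CPM), in *Rnf31* (45.3 CPM) and in the log2 ratio of *Nfkb2* to *Nfkb1* (-1.05). Without it the log2 fold change of *Nfkb2* was 0.19 (edgeR adjusted p = 0.0945). Other single values were *Map3k7* in fl/fl replicate 7 (67.7 CPM, the lowest), *Tnfrsf12a* in fl/fl replicate 7 (10.6 CPM, the highest) and *Ngfr* in fl/fl replicate 6 (12.4 CPM, the highest).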

How the results depend on the processing

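All 10 genes had a positive log2 fold change in each fit to all genes. The 10 genes gave 5 calls, which became 3 with DESeq2's size factors in edgeR, 2 with no filter on low counts and 1 with the animal-number series as a block, the cause of which was not tested. There were 6 with the DESeq2 Wald test and 6 with at least 10 counts required in every library, each adding *Tnfrsf1b*, and 5 with limma on rlog values, with *Tnfrsf1b* in place of *Nfkb2*. Over all genes tested, 2176 of 16753 were higher with DESeq2's size factors and 1623 of 33618 with no filter. These counts were 2458 of 18621 with the Wald test, 2421 of 14939 with at least 10 counts in every library and 2237 of 16753 with limma. With iADKO replicate 1 as a series of its own, an alternative chosen after seeing the data, 0 of the 10, 3 further genes and 54 genes in all passed. Leaving out 1 library at a time gave 2 to 7 calls among the 10, 25 to 47 among the further genes of the pathway (38 with all libraries) and 3998 to 6604 among all genes (5104 with all libraries). With the series as a block the last counts were 16 and 1986. Of the 5104 genes, 4913 remained called with DESeq2's size factors, 4975 with its Wald test, 3852 with no filter, 4841 with at least 10 counts in every library, 4854 with limma on rlog values, 4257 with the replicate block, 1923 with the series as a block and 53 with iADKO replicate 1 as its own series, all in the same direction.

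The log2 fold change of *Lmna* was 0.15 to 0.24 without 1 library, and 0.19 without fl/fl replicate 5 and iADKO replicate 6, where it passed (edgeR adjusted p = 0.0344). Without 1 library, the differences in log2 ratio were 0.55 to 0.81 for *Tnfrsf1b* to *Tnfrsf1a*, -0.0089 to 0.069 for *Nfkb2* to *Nfkb1* and 0.23 to 0.34 for *Nfkbia* to *Rela*. That of *Nfkb2* to *Nfkb1* changed sign without fl/fl replicate 4 (-0.0030) and without iADKO replicate 2 (-0.0089), each close to 0. Without both libraries that stood apart, an alternative chosen after seeing the data, the differences were 0.92 (adjusted p = 0.00649), 0.03 and 0.35 (adjusted p = 0.0455) in the exact permutation test. For the ratio of *Tnfrsf1b* to *Tnfrsf1a* the groups then no longer overlapped. Its p before adjustment was the smallest that the test allows with those libraries. Raw counts plus 0.5 and rlog values changed no call of a ratio.

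The replicate numbers did not clearly pair the mice. Of the same-numbered pairs, 3 of 6 had a correlation of deviations above 0.1. Among libraries labelled iADKO 2 of 6 correlated best with their own number, as did 3 of 6 among fl/fl replicates 1 to 6. With the replicate block, which leaves out fl/fl replicate 7, 4833 genes passed, with 5 of the 10 genes and 42 further genes. *Tnfrsf1b* passed (edgeR adjusted p = 0.0327), *Nfkb2* did not (0.0576), and the ratios differed by 0.62, 0.02 and 0.28. The sign-flip test of these 6 pairs gives no p under 0.03125, which a single ratio cannot bring under 0.05 after adjustment over 3, so that it says nothing of their calls. Depth limits *Tnf* most, at 13 to 82 counts per library.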

Other observations

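Markers of skeletal muscle, epithelium and neutrophils were uneven between mice. Summed skeletal muscle markers, led by *Acta1*, were at 354 CPM in fl/fl replicate 5 and 275 CPM in fl/fl replicate 1, and between 10.7 and 197 CPM in the libraries labelled iADKO. With all libraries, or without fl/fl replicate 5 and iADKO replicate 6, 0 of the 5 genes passed the edgeR test (log2 fold changes from -1.21 to -0.69 with all libraries), and *Myh4* was at 0 counts in 3 libraries. Summed epithelial markers, led by *Krt18*, were at 171 CPM in iADKO replicate 6, the lowest of its group on the first principal component. They were between 21.3 and 56.9 CPM in the other libraries labelled iADKO. Of these 4 genes 2 were higher and 0 lower, namely *Krt8* (edgeR adjusted p = 0.0430) and *Krt18* (log2 fold change 1.44, edgeR adjusted p = 0.0444). Without fl/fl replicate 5 and iADKO replicate 6 neither passed, with a log2 fold change of 0.63 for each (edgeR adjusted p = 0.0986 and 0.148). Over all genes tested, 14.1% were higher and 16.3% lower with all libraries. Without those libraries the shares were 19.6% and 23.3%. Neutrophil markers, with *Ly6g* at 0 in fl/fl replicate 3, summed to between 18.2 and 176 CPM in fl/fl and between 70.2 and 264 CPM in the libraries labelled iADKO. The part of these cells in the values of the 10 genes was not tested.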
